A study of Homo sapiens with 6 samples.

Results

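The aminoacyl-tRNA synthetases, the enzymes that load each transfer RNA with its amino acid, were followed in human cells differentiated toward nephron progenitors with or without glutamine. The set held 35 genes of the 60107 gene IDs in the count table, and was chosen by name: 19 cytosolic enzymes and 16 mitochondrial ones. All 35 mapped to 1 Ensembl ID each, and all 35 passed the filter on low counts, with 267 to 34071 counts per gene and library. The rule used no measured value.

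RNA came from H9, an established line of human embryonic stem cells, collected at day 9 of directed differentiation and measured by stranded mRNA sequencing. One group of 3 libraries was grown in complete medium with glutamine, and the other group of 3 was deprived of glutamine from day 0. All 6 libraries share the cell line, the protocol and the day, and nothing in the labels says whether the replicates were separate differentiations, so p-values here measure only the spread between these libraries, which may be technical. The comparison asked which transcripts differ when the medium lacks glutamine.

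Synthetases work in the cytosol and, separately, in mitochondria, and most amino acids have a gene for each place. GARS1 and KARS1 supply both compartments from 1 gene. Several cytosolic enzymes are bound together in the multisynthetase complex with scaffold proteins, and here these are EPRS1, IARS1, KARS1, LARS1, MARS1, QARS1 and RARS1. Glutamine has a special place in the family: QARS1 loads it in the cytosol, whereas mitochondria have no such enzyme, so EARS2 first loads glutamate and an amidotransferase made of QRSL1, GATB and GATC then converts it to glutamine on the transfer RNA. When an amino acid runs short, the kinase GCN2 raises translation of the transcription factor ATF4, and several cytosolic synthetase genes are known ATF4 targets.

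ATF4 binds short DNA elements, so the promoters of the family were read for them: these sequences are shown because they mark which members carry such an element at their start. RefSeq promoters (GRCh38.p14), from 250 bases before to 50 bases after the start, were at hand for 30 of the 35 members. They were searched on both strands for the amino acid response element core TTGCATCA and for the broader C/EBP-ATF element core TGATGNAA. Each match of the first is also a match of the second, read on the other strand. Of 16 cytosolic members with a promoter, 6 held TTGCATCA (37.5%), and of 14 mitochondrial members none did. Among all 27305 genes with a promoter in that table the share was 1.08%. TGATGNAA was present in 7 of the 16 cytosolic members and 1 of the 14 mitochondrial ones, against 4.46% of all genes. The windows below run 5′ to 3′ on the gene's strand over 30 bases, with the matched letters in capitals.
AARS1, chr16:70289675-70289704, minus strand: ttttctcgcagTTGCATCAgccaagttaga
CARS1, chr11:3057407-3057436, minus strand: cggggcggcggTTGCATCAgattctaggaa
IARS1, chr9:92293692-92293721, minus strand: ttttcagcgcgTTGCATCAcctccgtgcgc
MARS1, chr12:57488053-57488082, plus strand: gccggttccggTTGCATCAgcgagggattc
TARS1, chr5:33440956-33440985, plus strand: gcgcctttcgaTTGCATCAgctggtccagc
NARS1, chr18:57621804-57621833, minus strand: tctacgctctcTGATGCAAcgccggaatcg
GARS1, chr7:30594834-30594863, plus strand: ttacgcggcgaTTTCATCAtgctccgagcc
YARS2, chr12:32756076-32756105, minus strand: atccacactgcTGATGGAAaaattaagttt

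In 5 of these members the match began within 15 bases of the start site. Counting the first transcribed base as 1 and the base before it as -1, its first letter was at -13 in IARS1, -4 in MARS1, -2 in CARS1, 3 in TARS1 and 15 in NARS1. It was at -33 in GARS1, -187 in AARS1 and -197 in YARS2, the mitochondrial tyrosine enzyme. TARS1, CARS1 and GARS1 each combined a match with a higher difference described below, the first 2 through TTGCATCA and GARS1 through TGATGNAA only. As an example, GARS1 is shown over the 250 bases before its start (chr7:30594628-30594877, plus strand).
GARS1: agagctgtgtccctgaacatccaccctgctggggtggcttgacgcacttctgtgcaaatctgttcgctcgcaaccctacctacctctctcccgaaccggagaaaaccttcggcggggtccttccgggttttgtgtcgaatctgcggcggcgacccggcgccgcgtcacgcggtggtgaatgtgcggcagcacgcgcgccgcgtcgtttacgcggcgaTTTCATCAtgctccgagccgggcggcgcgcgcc
A match is a description of letters and does not show that a factor binds there.

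The libraries held 78220507 to 84746566 counts, and the synthetases together took 0.42% to 0.463% of them. Replicate 1 with glutamine stood apart from its group: its Pearson's r of log2 CPM (counts scaled to the library total) across genes was 0.976 with either partner in the glutamine group, but 0.991 to 0.993 with each glutamine-free library. Nephron progenitor markers were present, and their summed level over 12 genes with glutamine was 1665 CPM in replicate 1, 1054 in replicate 2 and 984 in replicate 3, and without it 1543 to 2067. Pluripotency markers, over 5 genes, summed to 346 to 443 CPM in the 6 libraries. Nearly all of that sum came from LIN28A, at 156 to 322 CPM with and 125 to 152 CPM without glutamine, and DPPA4, at 113 to 184 CPM with and 212 to 269 CPM without, whose groups did not overlap and lay in opposite directions. The defining markers were near 0: NANOG was at 0 in 4 libraries and at most 0.0128 CPM in the others, and POU5F1 was at most 0.151 CPM. Markers of endothelium, over 4 genes, summed to 27.4 to 87.6 CPM with and 16.02 to 21.5 CPM without glutamine. Most of that was KDR, at 24.3 to 82.3 CPM with and 12.7 to 17.5 CPM without. PECAM1 and CDH5 were lower too, but at most 1.77 CPM, and TEK overlapped between groups. Neural markers, over 5 genes, summed to 23.9 to 68.8 and 55.8 to 81.7 CPM. Most of that was DCX, at 18.4 to 63.4 and 49.1 to 75.8 CPM, which overlapped. Of the other neural markers TUBB3 was higher and PAX6 lower with no overlap, and SOX1 and ELAVL3 overlapped. The part of these shifts in the values below was not tested. In such bulk RNA, fewer cells of a type and less RNA per cell cannot be told apart. The deposited column headings name days 0 and 9 while the labels place all samples at day 9, and columns were assigned by the heading that each sample's description states, so each direction rests on that assignment.

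Differences in the family were small and ran both ways. The fitted log2 fold change, without minus with glutamine, ran from -0.45 to 0.45 over the 35 members, with a median of -0.01, which turned positive when some single libraries were left out, beside 0.00 over all 22613 genes tested. By edgeR's quasi-likelihood test with Benjamini-Hochberg adjustment over all genes, 0 of 35 members had an adjusted p under 0.05, beside 0.00442% of all genes (1 gene). At an unadjusted p under 0.05 there were 14 members, 6 higher and 8 lower (40% of the members, beside 29.7% of all genes, 14.7% higher and 15.0% lower), and 7 had an adjusted p under 0.1 (20%, beside 14.5%). Of those 7, 4 were higher (beside 7.3% of all genes) and 3 lower (beside 7.23%). DESeq2 called 3 of 35 at an adjusted p under 0.05 (8.57%, beside 14.4% of the genes it adjusted): WARS1 higher, and QARS1 and TARS2 lower without glutamine (beside 7.75% higher and 6.63% lower among all genes). All 3 libraries of one group lay above all 3 of the other for 12 members, or 34.3%, beside 34.2% of all genes, so that count is near the background.

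**Figure D1:**
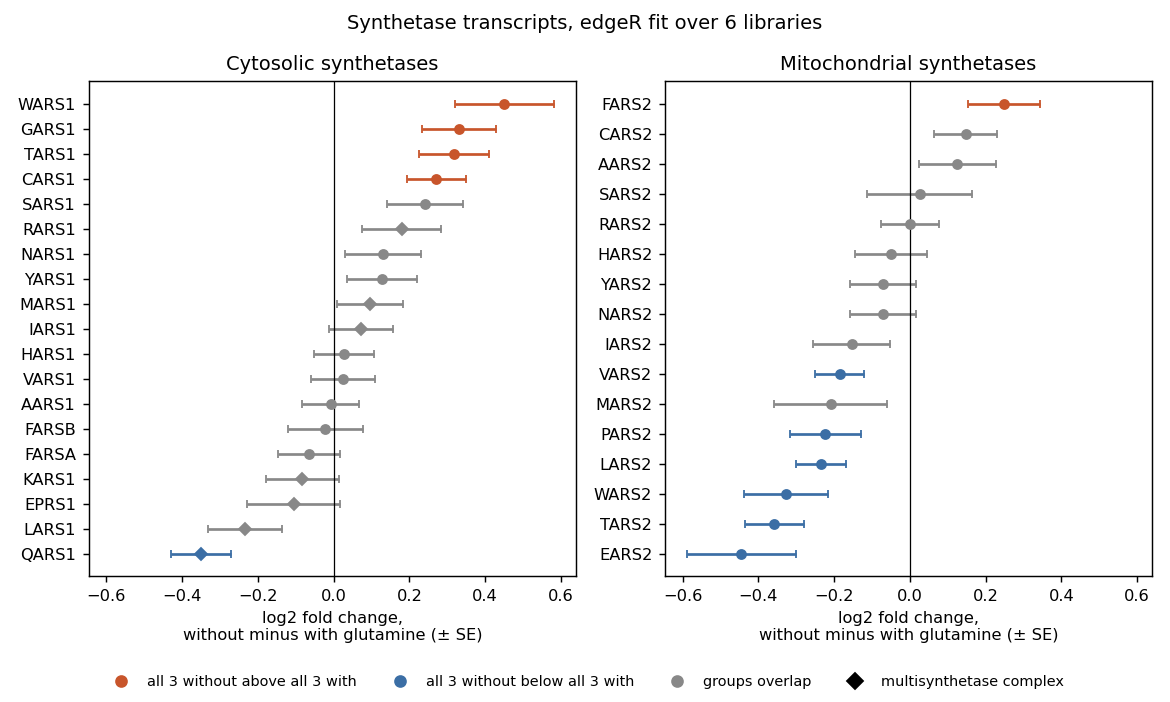
Log2 fold change of each of the 35 synthetase transcripts, without minus with glutamine, on the horizontal axis, with its standard error from the edgeR fit over 6 libraries, for cytosolic (left) and mitochondrial (right) enzymes. Orange and blue points mark members whose 3 libraries without glutamine all lay above or all below the 3 with it, grey points those that overlapped, and diamonds the multisynthetase complex. WARS1 is at the top of the cytosolic panel at 0.45, QARS1 at its foot at -0.35, and EARS2 at the foot of the mitochondrial panel at -0.45.

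The compartments differed in which direction their members leaned. The cytosolic members had a median log2 fold change of 0.07, with 12 of 19 above 0. The mitochondrial members had a median of -0.11, with 11 of 16 below 0. Without GARS1 and KARS1, which serve both compartments, the cytosolic median was still 0.07. The cytosolic lean depended on the scaling. Under upper quartile scaling the cytosolic median was 0.03, with 10 of 19 above 0. The mitochondrial median was then -0.16, with 13 of 16 below 0, beside -0.04 over all genes tested. Among cytosolic members 4 were higher with no overlap between groups and 1 was lower (21.1% and 5.26%, beside 17.3% and 16.9% of all genes). Among mitochondrial members 1 was higher and 6 were lower (6.25% and 37.5%). Whether the compartments differ as classes was not tested, since the members are not independent replicates.

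Summed over the class, the mitochondrial enzymes with glutamine were at 764 CPM in replicate 1, 856 in replicate 2 and 881 in replicate 3, and without it at 747, 764 and 765 CPM. Replicate 1 with glutamine was thus among the glutamine-free libraries, and the groups overlapped. For the cytosolic enzymes the sums were 3365, 3566 and 3876 CPM with glutamine against 3391, 3836 and 3816 CPM without, which overlapped. The ratio of the summed cytosolic to the summed mitochondrial CPM was 4.40, 4.17 and 4.40 with glutamine and 4.54, 5.02 and 4.99 without. All 3 ratios without glutamine lay above all 3 with it. Of all single genes tested, 34.2% had groups that did not overlap, in one direction or the other. The share among ratios of other gene sets was not taken, and this ratio was not tested.

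**Figure D2:**
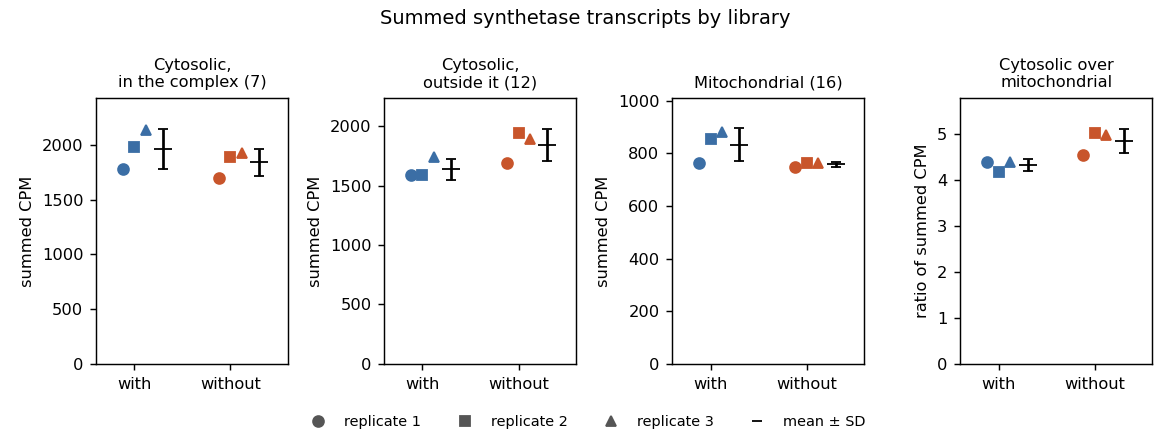
Summed CPM, scaled by TMM, of the synthetases in the multisynthetase complex, the other cytosolic ones and the mitochondrial ones, and the ratio of all cytosolic to all mitochondrial CPM, in each library with (blue) and without (orange) glutamine. Symbols give the replicate number and bars the mean ± SD over 3 libraries, and the ratio is at most 4.40 with glutamine and at least 4.54 without.

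In the cytosol 4 enzymes were higher in every library without glutamine than in any with it. All lie outside the multisynthetase complex (33.3% of the 12 there, beside 17.3% of all genes). WARS1 (ENSG00000140105), which loads tryptophan, measured 95.7, 98.0 and 108 CPM with glutamine (replicates 1, 2 and 3, an order kept throughout) against 111, 153 and 149 CPM without. Replicate 1 without glutamine was close to the highest library with it, and the other two were well above. The means were 101 ± 6.61 and 137 ± 23.2 CPM (SD, n = 3). The fitted log2 difference was 0.45 (SE 0.13), or 36.7% higher, with an adjusted p of 0.0887 by edgeR and 0.0295 by DESeq2.

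GARS1 (ENSG00000106105), the glycine enzyme of both compartments, was at 148, 155 and 170.2 CPM with glutamine and at 177, 218 and 200.1 CPM without. The fitted log2 difference was 0.33 (SE 0.10), with an adjusted p of 0.0908 by edgeR. TARS1 (ENSG00000113407), which loads threonine, measured 204, 198 and 226 CPM with glutamine against 234, 268 and 281 CPM without. The lowest library without glutamine was just above the highest with it, and the log2 difference was 0.32 (SE 0.09, adjusted p 0.089 by edgeR). CARS1, which loads cysteine, was at 49.4 to 53.6 CPM with and 58.0 to 65.7 CPM without (log2 difference 0.27, SE 0.08, adjusted p 0.0873 by edgeR). For these genes replicate 1 with glutamine stayed with its own group, nearer to its mean than to that of the libraries without.

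On GRCh38 with GENCODE 29, WARS1 lies at chr14:100333788-100376805 on the minus strand, GARS1 at chr7:30594681-30634033 and TARS1 at chr5:33440696-33469539, both on the plus strand. QARS1 lies at chr3:49095932-49105135 (minus), EARS2 at chr16:23522014-23557731 (minus), TARS2 at chr1:150487364-150507609 (plus) and WARS2 at chr1:119031216-119140671 (minus). On the opposite strand, exons of WARS1 overlap WDR25 and AL157871.4, those of EARS2 UBFD1, those of GARS1 GARS-DT and those of WARS2 AL359915.2. On the same strand, exons of QARS1 overlap MIR6890 and those of TARS2 MIR6878. TARS1 has no such overlap. The strand setting of the count is not known here.

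Across the 12 cytosolic enzymes outside the complex the median log2 fold change was 0.13, and 9 were above 0. SARS1, the serine enzyme, was at 157 to 171 CPM with glutamine and at 166, 211 and 199 CPM without, overlapping only through replicate 1 of the latter group (log2 difference 0.24, SE 0.10, adjusted p 0.16 by edgeR). AARS1, the alanine enzyme and a known ATF4 target, measured 187, 168 and 182 CPM with glutamine against 168, 186 and 181 CPM without. Its groups overlapped throughout, with a log2 fold change of -0.01 (SE 0.07). The other members outside the complex, namely FARSA and FARSB (both subunits of the phenylalanine enzyme), HARS1, VARS1, NARS1 and YARS1, ran from -0.07 to 0.13 and their groups overlapped.

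In the multisynthetase complex the median log2 fold change was -0.08 over 7 members, 3 of them above 0 and 4 below. With no overlap between groups 0 of 7 were higher and 1 was lower (beside 17.3% and 16.9% of all genes). Whether the complex differs from the other cytosolic enzymes was not tested. QARS1 (ENSG00000172053), the glutamine enzyme, was at 360.1, 394 and 422 CPM with glutamine and at 296, 307 and 318 CPM without. The 3 libraries without glutamine lay close together below all 3 with it. The means were 392 ± 30.9 and 307 ± 11.1 CPM (SD, n = 3). The fitted log2 difference was -0.35 (SE 0.08), a change in level of -21.6%, with an adjusted p of 0.0706 by edgeR and 0.023 by DESeq2. LARS1, the leucine enzyme, measured 299, 356 and 379.6 CPM with glutamine against 280.0, 299 and 301 CPM without (log2 difference -0.23, SE 0.10, adjusted p 0.166 by edgeR). Its groups overlapped only through replicate 1 with glutamine.

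EPRS1, 1 protein that loads both glutamate and proline, was at 263, 329 and 361 CPM with glutamine and at 272, 303 and 310.3 CPM without (log2 difference -0.11, SE 0.12, adjusted p 0.579 by edgeR). KARS1, the lysine enzyme of both compartments, was at 213 to 262 CPM with and 208 to 239 CPM without (log2 difference -0.08, SE 0.10, adjusted p 0.578 by edgeR). IARS1, MARS1 and RARS1 ran from 0.07 to 0.18 with overlapping groups. Of the scaffold proteins, AIMP1 (log2 fold change -0.08) and EEF1E1 (0.10) overlapped between groups, and AIMP2 was at 12.6 to 13.03 CPM with and 13.6 to 15.7 CPM without (0.17, SE 0.09, edgeR adjusted p 0.246).

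Among the mitochondrial enzymes EARS2 (ENSG00000103356), which loads glutamate for both glutamate and glutamine codons, had the lowest log2 fold change of the family. It was at 66.0, 91.1 and 96.8 CPM with glutamine and at 59.5, 61.2 and 65.9 CPM without. Replicate 1 with glutamine lay just above the highest library without, so the groups were barely apart. The means were 84.7 ± 16.4 and 62.2 ± 3.35 CPM (SD, n = 3). The fitted log2 difference was -0.45 (SE 0.14), with an adjusted p of 0.105 by edgeR. Left without replicate 1 of the glutamine group, it was -0.59 (SE 0.07) at an adjusted p of 0.000183 from edgeR. Of the amidotransferase that completes glutamine loading, QRSL1 was at 35.7, 47.1 and 48.5 CPM with glutamine and 38.2 to 39.2 CPM without (-0.17, SE 0.12, edgeR adjusted p 0.366), and GATB (-0.11) and GATC (-0.01) overlapped as well. Without the same library QRSL1 had -0.30 (SE 0.07), with an adjusted p of 0.00647 by edgeR and 0.00134 by DESeq2. In that edgeR fit GATB had -0.10 (adjusted p 0.365) and GATC -0.08 (adjusted p 0.405). With that library left out, 41.3% of all genes had an adjusted p under 0.05 by edgeR and 33.0% by DESeq2.

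TARS2 (ENSG00000143374), the mitochondrial threonine enzyme, was at 40.9, 45.6 and 45.4 CPM with glutamine and at 33.9, 35.8 and 33.2 CPM without. All 3 libraries without glutamine lay clearly below any with it, and the log2 fold change was -0.36 (SE 0.08) at an adjusted p of 0.0706 from edgeR and 0.0162 from DESeq2. WARS2 (ENSG00000116874), the mitochondrial tryptophan enzyme, measured 19.6, 24.5 and 24.8 CPM with glutamine against 18.8, 17.6 and 18.6 CPM without (log2 difference -0.33, SE 0.11, adjusted p 0.115 by edgeR). Here replicate 1 with glutamine lay nearest to the libraries without. LARS2, VARS2 and PARS2, for leucine, valine and proline, were lower with no overlap, with log2 fold changes of -0.24, -0.19 and -0.22.

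FARS2, the mitochondrial phenylalanine enzyme, was the 1 mitochondrial member that was higher with no overlap, at 10.5 to 12.1 CPM with and 12.8 to 13.6 CPM without glutamine (log2 difference 0.25, SE 0.09, adjusted p 0.142 by edgeR). The remaining 9 mitochondrial members ran from -0.21 for MARS2 to 0.15 for CARS2, and their groups overlapped. SARS2, the mitochondrial serine enzyme, had the lowest level of the family, 3.398 to 4.08 CPM with and 3.46 to 4.06 CPM without. It shares exon sequence with a same-strand gene (AC011455.2) in GENCODE 29, and the counting of such reads is not given in the sources used here.

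**Figure D3:**
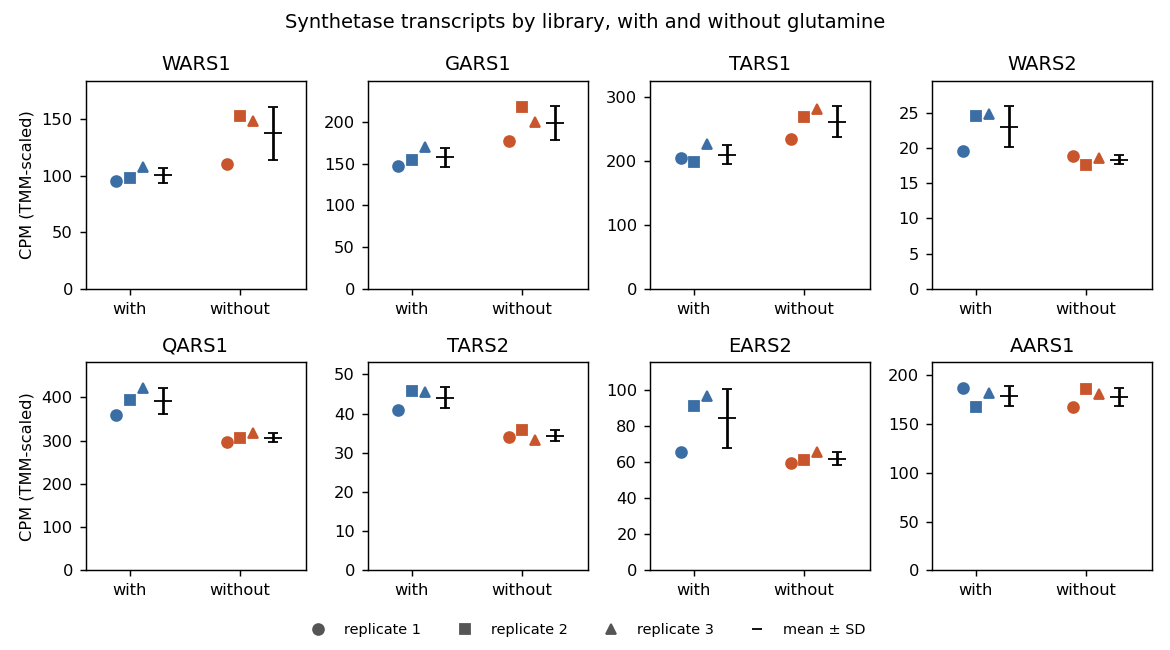
CPM, scaled by TMM, of the 7 members with no overlap between groups and an absolute log2 fold change of at least 0.3, and of AARS1 for comparison, in each library with (blue) and without (orange) glutamine. Symbols give the replicate number and bars the mean ± SD over 3 libraries. WARS1, GARS1 and TARS1 are higher without glutamine, WARS2, QARS1, TARS2 and EARS2 are lower, and AARS1 overlaps.

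The same amino acid could show opposite leanings in its cytosolic and mitochondrial enzymes. For 13 amino acids with 1 enzyme gene per compartment in the set, the ratio of the cytosolic to the mitochondrial transcript, in CPM per kilobase of exon, was taken within each library. For threonine, TARS1 over TARS2 was 3.56, 3.10 and 3.55 with glutamine and 4.93, 5.34 and 6.02 without. For tryptophan, WARS1 over WARS2 was 2.95, 2.42 and 2.63 with and 3.57, 5.26 and 4.84 without. In both the libraries without glutamine were all above those with it, and the log2 ratio was higher by 0.67 and 0.76.

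Over the 13 pairs the log2 ratio was higher without glutamine in 12 and lower in 1, with a median difference of 0.20, and without replicate 1 of the glutamine group it was higher in 11. For 8 pairs the cytosolic member was above 0 and the mitochondrial one below 0 in log2 fold change. The exact two-sided permutation test of each ratio over the 6 libraries cannot fall under 0.1, and it reached that value for 5 pairs: isoleucine, threonine, valine, tryptophan and tyrosine (adjusted over the 13 pairs, p = 0.26). No pair therefore passed a threshold. At 0.1 the 3 libraries of one group all lay beyond the other 3, as they did for 34.2% of all single genes tested. The share among ratios of other genes was not taken. The pair that went the other way was AARS1 over AARS2, the alanine enzymes, at 3.90, 4.41 and 4.52 with and 3.50, 4.11 and 4.05 without.

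**Figure D4:**
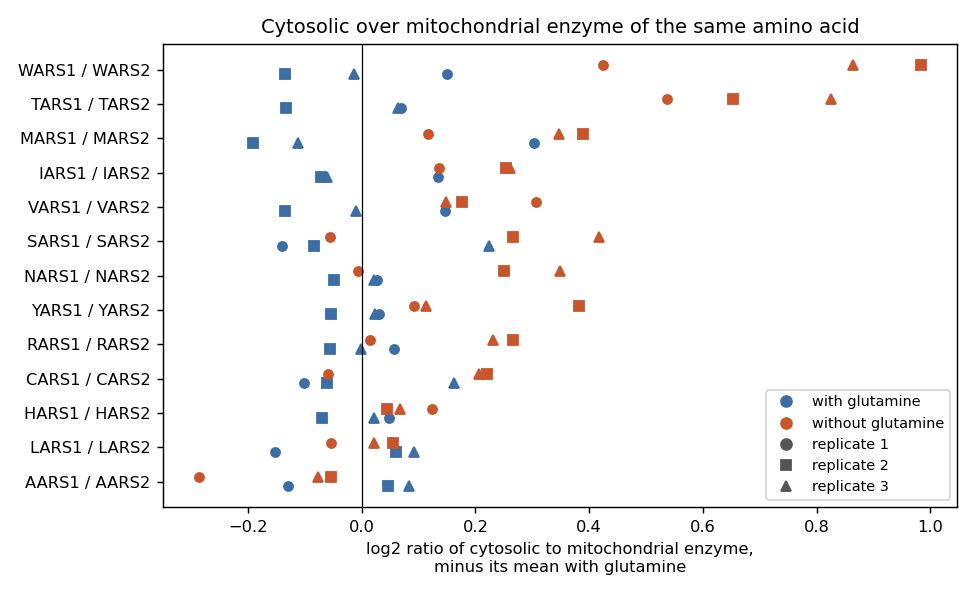
Log2 ratio of the cytosolic to the mitochondrial synthetase of 1 amino acid in each library, less its mean over the 3 libraries with glutamine, for 13 amino acids. Blue symbols are libraries with and orange ones libraries without glutamine, and the symbol shape gives the replicate. TARS1 over TARS2 and WARS1 over WARS2 lie farthest to the right, with mean differences of 0.67 and 0.76.

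Levels within the family were compared per kilobase of exon. With glutamine QARS1 was highest, at 83.3 ± 6.6 CPM per kilobase (SD, n = 3), followed by KARS1 at 58.3 ± 6.0, EPRS1 at 58.3 ± 9.1, NARS1 at 56.2 ± 4.6 and IARS1 at 53.4 ± 3.1, which did not differ beyond their spread. Without glutamine QARS1 was at 65.3 ± 2.4 and NARS1 at 61.5 ± 6.2, so that the lead of QARS1 was within the spread of NARS1. IARS2 was the highest mitochondrial member, at 49.2 ± 6.4 with and 44.2 ± 1.5 without, and SARS2 the lowest, at 1.17 ± 0.11 and 1.19 ± 0.10. Exon length was the union of all annotated exons in GENCODE 29, which understates genes with long rare transcripts.

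The promoter matches were set beside the differences. The 7 cytosolic members with either core had a median log2 fold change of 0.13, from -0.01 for AARS1 to 0.33 for GARS1, and 3 of them were higher with no overlap (CARS1, GARS1 and TARS1, beside 17.3% of all genes). For the 6 with TTGCATCA, which leave out GARS1, the median was 0.11 and 2 were higher with no overlap. The 9 cytosolic members with a promoter and no match had a median of -0.02, from -0.35 for QARS1 to 0.45 for WARS1, with 1 higher and 1 lower with no overlap (beside 17.3% and 16.9% of all genes). Without replicate 1 of the glutamine group the medians were 0.08 with a match and -0.09 with none. WARS1, the cytosolic member with the highest log2 fold change, thus held neither core in this window, and 4 of the 7 with a match, AARS1, IARS1, MARS1 and NARS1, had overlapping groups. These counts are a description and were not tested.

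Genes that the amino acid response is known to raise, other than synthetases, lay above 0 more often than below. Of 32 such genes 30 passed the filter on low counts, with a median log2 fold change of 0.27 and 23 above 0 and 7 below. All 20 whose groups did not overlap were higher without glutamine (66.7%, beside 17.3% of all genes that were higher in this way). SLC7A11, which encodes a cystine transporter, rose from 17.9 to 20.8 CPM with glutamine to 45.0 to 53.2 CPM without, and was the 1 gene of all tested with an edgeR adjusted p under 0.05 (log2 fold change 1.35, SE 0.10, adjusted p 0.0488). ATF4 itself was at 158, 153 and 167 CPM with glutamine and at 181, 211 and 210.4 CPM without. Its log2 difference was 0.33 (SE 0.08), with an adjusted p of 0.0772 by edgeR and 0.033 by DESeq2. ASNS, which makes asparagine from glutamine, had 0.89 and CHAC1, which degrades glutathione, 1.78, each above the highest synthetase at 0.45. The others that were higher with no overlap were ALDH1L2, ATF5, CEBPB, CEBPG, EIF4EBP1, MTHFD2, PCK2, PSAT1, PSPH, SESN2, SHMT2, SLC38A2, SLC3A2, SLC6A9, SLC7A1 and SLC7A5. The list also held genes in the other direction: DDIT4, an inhibitor of mTORC1 signalling, had -1.10 (adjusted p 0.104 by edgeR, 0.00622 by DESeq2), VLDLR, a lipoprotein receptor, -0.78 (0.144 and 0.0388), STC2 -0.33 and TRIB3 -0.15, all with overlapping groups. DESeq2 called 13 genes of the list higher and 2 lower (beside 7.75% and 6.63% of all genes). Without replicate 1 of the glutamine group edgeR called 15 higher and 4 lower (50% and 13.3%, beside 22.3% and 19.0% of all genes). The lower ones were DDIT4, JDP2, STC2 and VLDLR. DDIT3, whose exons overlap those of MARS1 on the other strand, had 0.02.

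One library moved with these results. In 19 of the 35 members (54.3%, beside 62.1% of all genes tested), replicate 1 with glutamine lay nearer to the glutamine-free mean than to the mean of its partners. The share was 12 of 16 mitochondrial members (75%) and 7 of 19 cytosolic ones (36.8%). Without that library edgeR called 16 of 35 members at an adjusted p under 0.05 (45.7%, beside 41.3% of all genes): 6 higher (beside 22.3%) and 10 lower (beside 19.0%). DESeq2 called 15 (beside 33.0%). The higher ones were the 4 cytosolic enzymes WARS1, GARS1, TARS1 and CARS1 and the mitochondrial AARS2 and FARS2. The lower ones were QARS1, LARS1 and EPRS1 in the cytosol, and EARS2, TARS2, WARS2, LARS2, MARS2, IARS2 and VARS2 in mitochondria. In that fit the mitochondrial median was -0.16 and the cytosolic one 0.07.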

How the data were processed

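The authors deposited raw counts per Ensembl gene, 1 column per library, and a table of normalized counts, a signal equal to the raw count divided by 1 size factor per library (0.977 to 1.08), not used for the tests. Cutadapt, Trim Galore, FastQC, STAR 2.5.2b, DESeq2 and GRCh38 are named in the submitters' processing notes. The counting program, annotation release and strand setting are not given in the sources used here, so counts of the 19 members whose exons overlap another gene in GENCODE 29, and of the 11 with a named pseudogene, are uncertain.

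The test was the quasi-likelihood F test of edgeR 4.0.16 under R 4.3.3 on the deposited counts, with legacy = FALSE, TMM scaling and filterByExpr, with Benjamini-Hochberg adjustment over 22613 genes and a threshold of 0.05. DESeq2 1.42.0 was an alternative. The standard error is the absolute log2 fold change over the square root of F. CPM are counts over the TMM-scaled library size. Scripts were tested on simulated data. Symbols matched 56531 of 60107 gene IDs, and the other IDs held 0.148% of counts. Members with no overlap between groups and an absolute log2 fold change of at least 0.3 are given in every library, with QARS1, EARS2, GARS1, KARS1 and the listed pathway genes. Other members were named after their values were seen. The members and lists were chosen with earlier results of these data known. Protein sequences were not analysed here.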

Additional observations from a re-analysis of the deposited data

How the results depend on the processing

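The count of 1 gene with an adjusted p under 0.05 was 0 under upper quartile scaling, library size only, edgeR's legacy setting and the replicate block, 2 with no filter and 3065 with DESeq2. Leaving out 1 library gave 0 to 9573 genes, the highest without replicate 1 with glutamine and 17 without replicate 1 of the other group. Of the synthetases 0 were called with edgeR, 3 with DESeq2, and 0 to 16 with 1 library left out, the highest again without replicate 1 with glutamine. DESeq2 without that library, an alternative chosen after seeing the data, called 8524 genes and 15 synthetases. The cause was not tested. Of 525 member values recomputed over 15 alternatives, 467 stayed alike in direction and call, 34 gained a call and 24 reversed, in 7 members near 0 and in none of the 7 shown in every library. Under upper quartile scaling HARS1 was -0.018, VARS1 -0.02, SARS2 -0.02 and RARS2 -0.044. RARS2 was -0.003 with DESeq2 size factors, -0.001 with library size only and -0.048 with DESeq2 without replicate 1 with glutamine, where AARS1 was 0.025. With 1 library left out AARS1 ran from -0.062 to 0.036, FARSB from -0.094 to 0.059, HARS1 from -0.015 to 0.092, HARS2 from -0.097 to 0.035, RARS2 from -0.044 to 0.045, SARS2 from -0.047 to 0.092 and VARS1 from -0.031 to 0.085. Same-numbered libraries did not deviate together (correlations -0.02, 0.00 and 0.03), 1 of 6 libraries correlated best with its own number, and the replicate block called 0 genes and 0 synthetases. The largest shift that a scaling gave the all-gene median was -0.04.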

Other observations

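Other genes of transfer RNA handling were followed as well. XPOT, the exporter that carries transfer RNA out of the nucleus, was at 242 to 259 CPM with glutamine and 294 to 301 CPM without (log2 fold change 0.25, SE 0.06, edgeR adjusted p 0.0746, DESeq2 adjusted p 0.0491). In selenocysteine loading, SEPHS2, which makes the selenium donor, was at 40.1 to 43.6 CPM with and 50.2 to 51.0 CPM without (0.27, SE 0.07, edgeR adjusted p 0.0771, DESeq2 adjusted p 0.0375). PSTK, the kinase of the same route, went the other way, at 9.81, 12.0 and 12.2 CPM with and 9.19 to 9.26 CPM without (-0.30, SE 0.11, edgeR adjusted p 0.141). DTD1, which clears D-amino acids from transfer RNA, was higher with no overlap (0.14). MTFMT, which formylates the mitochondrial initiator, was at 13.1 to 15.2 CPM with and 16.2 to 17.3 CPM without (0.25, SE 0.09, edgeR adjusted p 0.133). TARS3, a cytosolic relative of TARS1, overlapped between groups (-0.15, SE 0.09), as did SEPSECS (-0.01) and AARSD1 (-0.26). Of these 7 genes, MTFMT aside, 3 were higher and 1 lower with no overlap (beside 17.3% and 16.9% of all genes).

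The 9 mitochondrial translation factors had a median log2 fold change of -0.09, with 7 of 9 below 0. Of these, 2, MTRF1 and MRRF, were lower with no overlap, beside 16.9% of all genes, so that count is near the background. The cytosolic elongation factors had a median of -0.07 over 4 tested genes. EEF1G, a gene that every cell uses, was listed at 0 counts in all 6 libraries. The E-box CACGTG, searched for comparison, was in 1 of 16 cytosolic and 3 of 14 mitochondrial promoters (IARS1, and CARS2, EARS2 and MARS2), against 8.77% of all genes.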
